A study of Mus musculus with 15 samples.

Results

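The nuclear genes of the mitochondrial respiratory chain and of ATP synthase were followed in mouse hearts exposed to doxorubicin with or without a vector for vascular endothelial growth factor B. A gene was taken as a member when its symbol in the platform annotation named a subunit or an assembly factor of complex I (Nduf), succinate dehydrogenase (Sdha to Sdhd), complex III (Uqcr and Cyc1), cytochrome c oxidase (Cox4 to Cox8) or ATP synthase (Atp5). This rule found 88 genes with 136 probes among the 19057 named genes and 45281 probes of the array. They fall into 44 genes of complex I, 4 of complex II, 8 of complex III, 16 of complex IV and 16 of complex V. The symbols of complex I bring in 8 Ndufaf assembly factors and the pseudogene Ndufs5-ps beside the subunits, and Ndufa4 was counted there by its symbol although its protein is now assigned to complex IV. The 13 subunits encoded in mitochondrial DNA fall outside these symbols, and the 8 of them that have a named probe are described after the members.

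Complexes I and II pass electrons from NADH and succinate to coenzyme Q, complex III passes them on to cytochrome c, and complex IV hands them to oxygen. Complexes I, III and IV pump protons across the inner mitochondrial membrane, and ATP synthase, complex V, uses the gradient to make ATP. Heart muscle works almost without pause and is among the tissues richest in mitochondria.

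Myocardium came from male C57Bl/6J mice aged 10 weeks, in 3 groups of 5 arrays. The PBS group received PBS. The DOX group received doxorubicin, an anthracycline used against cancer that can damage the heart. The VEGFB_DOX group was given the vector AAV9-VEGF-B, derived from an adeno-associated virus, 7 days ahead of doxorubicin, and myocardium was collected 20 hours after drug or PBS. A group with the vector and no drug was not analysed here, so a change in VEGFB_DOX hearts belongs to vector and drug together. No group with an empty vector was analysed either, so VEGF-B and the virus that carried it cannot be told apart. The single Vegfb probe was lower, not higher, in the group given the vector: it read 12.76 ± 0.07 (SD, n = 5) there, beside 12.98 ± 0.09 with the drug alone and 12.95 ± 0.07 with PBS. By limma it fell by 0.22 ± 0.06 (adjusted p = 0.0199) against DOX and by 0.19 ± 0.06 (adjusted p = 0.0449) against PBS. Whether this probe reads the RNA of the vector is not given in the sources used here. According to the labels each group had 5 mice, and should several arrays come from the same mouse, p-values would reflect technical spread alone.

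All values are the authors' log2 intensities, from 6.52 to 14.93, and a fold is a difference of group means on the log2 scale ± the standard error of the limma fit over 15 arrays. A probe was tested when it exceeded a background limit of 6.92 on at least 5 arrays, and a gene is represented by its brightest tested probe unless another is named. Benjamini-Hochberg adjustment ran over all 24861 probes tested, with a threshold of 0.05. By this measure 83 of the 88 members and 122 of their 136 probes were tested. The genes left out are Ndufs1, Ndufaf6, Sdha, Cox7b2 and Cox8c, each with its single probe at or near background. The probes of Ndufs1 and Sdha, core subunits of complexes I and II, were above background on only 1 and 4 arrays, so those subunits were not measured.

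The members were among the brightest genes of the heart arrays. The brightest probe of a member lay at a median percentile of 99.4 among all probes. Of the 60 named genes with a mean of at least 14, 22 were members, and of the 485 with a mean of at least 12, 55 were. Cox4i1 (mean 14.67), Cox7a1 (14.65), Ndufa13 (14.65), Atp5b (14.62) and Uqcr10 (14.43) stood near the top of the scale, where values of different genes are crowded together.

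Before any comparison, 4 arrays stood apart from the other 11 over all tested probes, and some members were low on them. The second principal component of all tested probes carried 19.3% of the variance and placed PBS 4, PBS 5, DOX 5 and VEGFB_DOX 5 between -19.40 and -15.01, with the other arrays between -2.29 and 14.48. The labels name no batch that matches this split, which was known from earlier results of these data. The 4 arrays are the last 4 in the order of the sample list. The cause of the split was not tested. A larger share of member probes than of all probes was low on these arrays: 18 of 122 member probes (14.8%) lay more than 0.5 lower on them, against 518 of 24861 probes in all (2.08%). For Sdhd, an anchor of complex II in the membrane, the difference was -1.53, for Ndufb9 -1.42, for Ndufb2 -1.22, for Atp5a1, the alpha subunit of ATP synthase, -1.15, and for Atp5e, its epsilon subunit, -1.08. The difference was concentrated at middle intensities: among genes with a mean from 8 to under 12 it exceeded 0.5 in 11 of 22 members (50%) and in 3.76% of 5457 named genes, while among all other members it did so in 1 of 61. None of the 8 genes of complex III was low by this measure, and the median difference over the 83 tested members was 0.00. Since each group holds 1 or 2 of these arrays, the counts of members called are also given with the split as a term of the model, an alternative added after the data had been seen, and so are the folds of some genes.

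**Figure D1:**
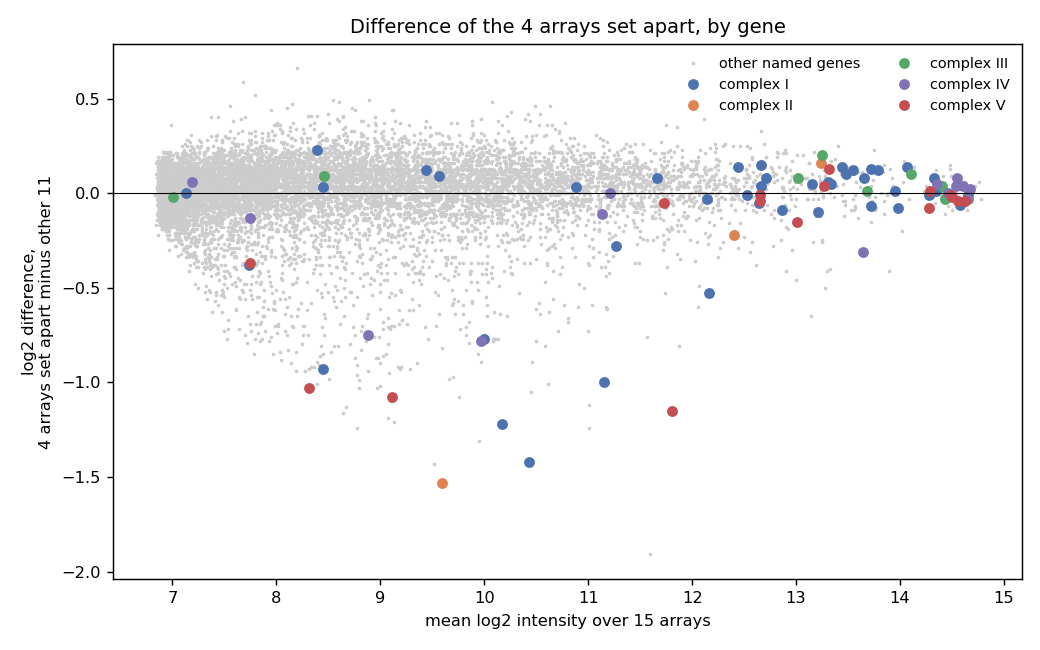
Difference in log2 intensity between the 4 arrays set apart and the other 11 (vertical axis, adjusted for group) against the mean log2 intensity over 15 arrays (horizontal axis), with 1 point for each tested named gene. Coloured member genes of complexes I, II, IV and V reach down to -1.53 at middle intensities, while bright members lie near 0.

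**Figure D2:**
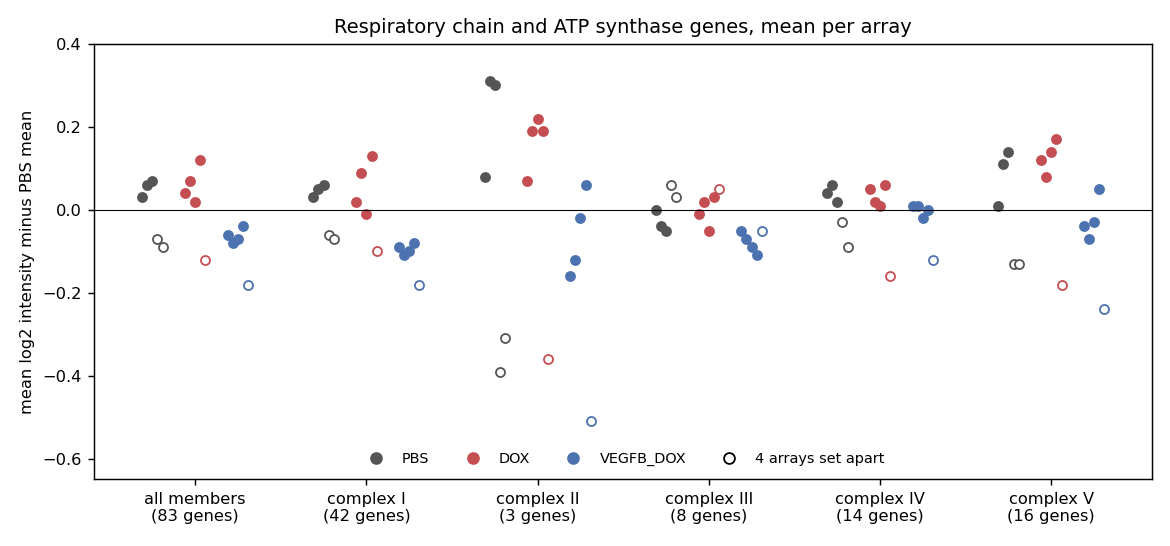
Mean log2 intensity of the tested member genes in each array, relative to the mean of the PBS group (vertical axis), for all 83 genes and by complex (horizontal axis), with open points for the 4 arrays set apart. Over all members the VEGFB_DOX arrays lie between -0.18 and -0.04, the PBS arrays between -0.09 and 0.07 and the DOX arrays between -0.12 and 0.12.

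Averaged over the 83 genes, the level relative to PBS was -0.09 ± 0.05 (SD, n = 5) on VEGFB_DOX arrays, beside 0.03 ± 0.09 on DOX arrays and 0.00 ± 0.07 on the PBS arrays themselves. The lowest array of the PBS and DOX groups was in each case one of those set apart. The VEGFB_DOX values overlapped those of both other groups. In complex I the VEGFB_DOX arrays lay from -0.18 to -0.08, and the DOX arrays from -0.10 to 0.13. In complex IV the group means were within 0.02 of PBS.

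The first comparison asks what the drug alone had changed after 20 hours. In DOX against PBS, 0 of the 83 members were higher and 0 lower, beside 0.416% of the 12750 named genes called in either direction (0.322% of all probes). At an unadjusted p under 0.05, 0 were higher and 1 was lower, beside 6.2% of named genes that were lower. The median fold of the members was 0.02, and that of all named genes 0.00. Folds of the members ran from -0.26 to 0.39, and the highest belonged to genes that were low on the arrays set apart. Atp5a1 stood at 0.39 ± 0.29, Atp5e at 0.38 ± 0.29 and Ndufb9, a supernumerary subunit of complex I, at 0.38 ± 0.37. With the split in the model these folds were 0.16 ± 0.07, 0.16 ± 0.12 and 0.10 ± 0.12. The lowest was Cox6a1, the widely expressed isoform of subunit 6a of cytochrome c oxidase, at 11.23 ± 0.12 (SD, n = 5) in PBS and 10.98 ± 0.22 in DOX hearts (fold -0.26 ± 0.10, adjusted p = 0.335). Its counterpart in heart and muscle, Cox6a2, had a fold of -0.01 ± 0.18. The count stayed at 0 with the split in the model, where 0.267% of named genes were called as lower. It was 1 lower gene, Cox6a1, at -0.34, without the arrays DOX 2 and VEGFB_DOX 3, which earlier results had set apart, and in that fit 1.27% of all probes were lower.

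The second comparison asks what the vector added to the drug. In VEGFB_DOX against DOX, 6 of 83 members fell and 0 rose (7.23% called). All 6 belong to complex I: Ndufb7, Ndufb3, Ndufa2, Ndufs3, Ndufaf5 and Ndufaf8. Among all named genes 12.4% were called, 3.95% as lower. The members' median fold was -0.12 against -0.02 for all named genes, and 70 of 83 members (84.3%) had a fold below 0 beside 57.1% of named genes. At an unadjusted p under 0.05, 19 members were lower and 1 higher, beside 12.5% of named genes that were lower, so most members had small negative folds that did not pass. The median was -0.13 in complex I, -0.18 in complex II, -0.08 in complex III, -0.04 in complex IV and -0.10 in complex V. The fold depended on brightness: the median of the members was -0.26 among 16 genes with a mean from 9 to under 12, -0.15 among 12 dimmer ones, -0.13 among 33 from 12 to under 14 and -0.03 among the 22 at or above 14, where named genes of the same ranges had -0.06, -0.01, -0.06 and 0.00. In the same order of ranges, 2 of 16, 1 of 12, 3 of 33 and 0 of 22 members were called as lower. Among named genes it was 284 of 3363, 197 of 8902, 22 of 425 and 1 of 60. In bulk tissue, fewer cells of a type and less RNA per cell cannot be told apart.

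**Figure D3:**
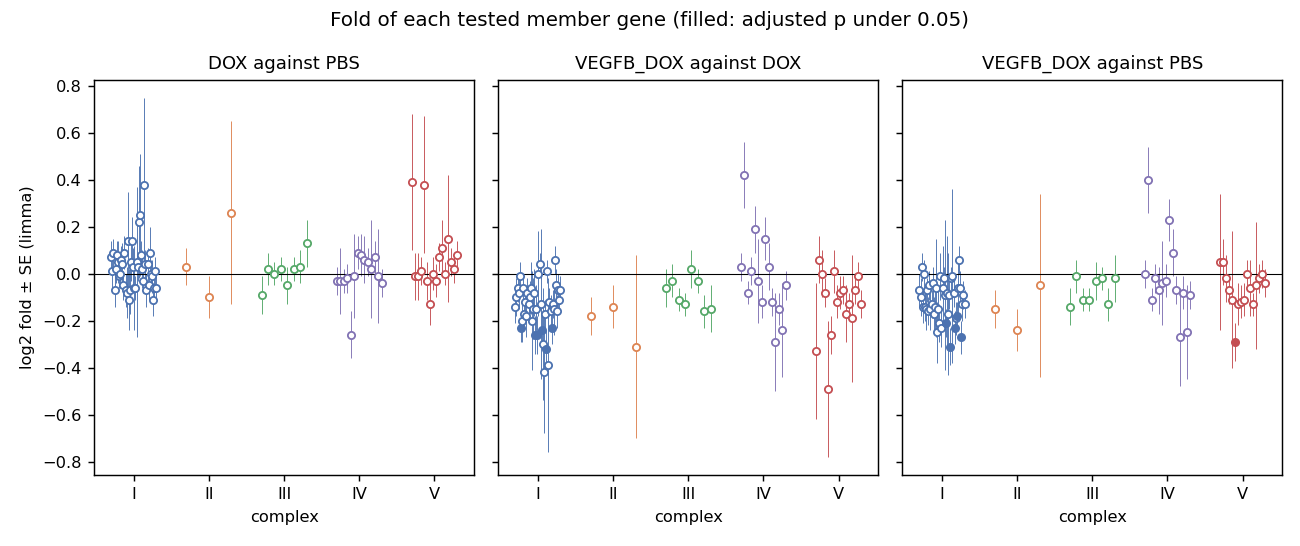
Log2 fold of each tested member gene ± the standard error of the limma fit (vertical axis) by complex (horizontal axis) in DOX against PBS, VEGFB_DOX against DOX and VEGFB_DOX against PBS. Filled points have an adjusted p under 0.05. The 6 that passed in VEGFB_DOX against DOX all lie in complex I, and no member passed in DOX against PBS.

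Among supernumerary subunits, which surround the catalytic core of complex I, the smallest p belonged to Ndufb7 of the membrane arm. Its values were 9.44, 9.45, 9.48, 9.69 and 9.61 in PBS, 9.57, 9.60, 9.40, 9.69 and 9.50 in DOX, and 9.27, 9.09, 9.26, 9.15 and 9.37 in VEGFB_DOX hearts. Every VEGFB_DOX value lay below every value of the other groups, and PBS and DOX overlapped. Ndufb7 fell by 0.32 ± 0.08 (adjusted p = 0.0124). Ndufb3, another subunit of the membrane arm, read 12.15, 12.21, 12.29, 12.08 and 12.28 in PBS, 12.14, 12.25, 12.18, 12.38 and 12.19 in DOX, and 11.98, 11.93, 11.97, 12.06 and 12 in VEGFB_DOX hearts. Its VEGFB_DOX values too lay below all others. It fell by 0.24 ± 0.06 (adjusted p = 0.02). Ndufa2, of the arm that takes up NADH, fell by 0.23 ± 0.06, from 13.44 ± 0.05 (SD, n = 5) to 13.22 ± 0.12 (adjusted p = 0.028). Of the 29 supernumerary subunits tested, 3 passed.

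Among core subunits 1 of 5 passed. Ndufs3, of the arm that reaches into the matrix, went from 12.95 ± 0.04 (SD, n = 5) in DOX to 12.72 ± 0.06 in VEGFB_DOX hearts and fell by 0.23 ± 0.07 (adjusted p = 0.0427). Of the 7 assembly factors tested, 2 passed, and these are known as partners. Ndufaf5, an enzyme that hydroxylates an arginine of Ndufs7, fell by 0.26 ± 0.08, from 9.67 ± 0.14 to 9.41 ± 0.08 (adjusted p = 0.038). Ndufaf8, which binds and stabilises Ndufaf5, fell by 0.26 ± 0.08, from 8.55 ± 0.16 to 8.28 ± 0.08 (adjusted p = 0.0455). Ndufs7 itself, which carries an iron-sulfur cluster, had a fold of -0.05 ± 0.07.

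Ndufb7 passed in all 10 fits that left out 1 array of the groups compared. The others lost their call without certain arrays, at folds from -0.28 to -0.18 and adjusted p from 0.0505 to 0.122: Ndufb3 did not pass without DOX 4 or VEGFB_DOX 2, Ndufa2 without DOX 1, DOX 2, DOX 4, VEGFB_DOX 3 or VEGFB_DOX 4, Ndufaf5 without DOX 2, DOX 4, DOX 5, VEGFB_DOX 2, VEGFB_DOX 3 or VEGFB_DOX 4, Ndufs3 without any array but DOX 5 or VEGFB_DOX 4, and Ndufaf8 without any array but DOX 1 or DOX 3. The count of 6 became 3 without DOX 2, 1 without DOX 4, 2 without VEGFB_DOX 2 and 2 without VEGFB_DOX 3. The share of all probes called in these fits is not given here, so a general loss of calls with fewer arrays cannot be told apart.

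The promoters of the genes that passed were searched for sites of factors known to drive respiratory chain genes. Nuclear respiratory factor 1 was searched as GCGCA, any base, then GCGC, GABP (nuclear respiratory factor 2) as CCGGAAGT, the estrogen-related receptors as AAGGTCA and YY1 as AAGATGGC, each on both strands, in the 250 bases before and 50 after the annotated start of RefSeq genes (build GRCm38.p6). Matches of different motifs did not overlap in any of the 77 windows of members, which cover 72 of the 88 genes. The motif of nuclear respiratory factor 1 stood in 24.7% of these windows and in 4.6% of all 32851, that of YY1 in 14.3% and 2.75%, that of the estrogen-related receptors in 9.09% and 4.72%, and that of GABP in 5.19% and 3.89%. Of the 10 genes that passed in this comparison or against PBS, 9 had a window and 5 of these a match. Among all members with a window, 34 of 72 had a match, and in complex I 17 of 39, so matches were not particular to the genes that passed. A match describes the letters and does not show that a factor binds.

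The stretches below, of 150 bases from 120 before to 30 after the start, are shown for Ndufb7 and Ndufb3, which had the smallest p-values and no match, and for 4 genes that passed and hold a match in the stretch, chosen after the matches were seen. Capitals mark the match: that of nuclear respiratory factor 1 in Atp5g2 (chr15:102671018-102671167, - strand) and Ndufaf5 (chr2:140170526-140170675, + strand), that of GABP in Ndufs3 (chr2:90904692-90904841, - strand) and that of YY1 in Ndufaf8 (chr11:120098814-120098963, + strand). Ndufb7 lies at chr8:83566638-83566787 (+ strand) and Ndufb3 at chr1:58586277-58586426 (+ strand). The match of Atp5g2 begins 42 bases before the start, and the other matches begin at or after it.
Ndufb7: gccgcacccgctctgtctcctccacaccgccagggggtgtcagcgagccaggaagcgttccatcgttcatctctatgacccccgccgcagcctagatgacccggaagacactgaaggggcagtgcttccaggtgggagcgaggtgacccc
Ndufb3: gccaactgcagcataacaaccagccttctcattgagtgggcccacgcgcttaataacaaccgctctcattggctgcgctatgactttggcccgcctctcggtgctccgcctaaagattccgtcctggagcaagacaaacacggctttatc
Ndufs3: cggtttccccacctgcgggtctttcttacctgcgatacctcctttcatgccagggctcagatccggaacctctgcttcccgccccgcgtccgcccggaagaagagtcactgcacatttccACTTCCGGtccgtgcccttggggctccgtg
Ndufaf5: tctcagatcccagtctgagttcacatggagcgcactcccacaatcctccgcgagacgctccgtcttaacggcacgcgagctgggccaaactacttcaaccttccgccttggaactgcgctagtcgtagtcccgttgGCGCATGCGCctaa
Ndufaf8: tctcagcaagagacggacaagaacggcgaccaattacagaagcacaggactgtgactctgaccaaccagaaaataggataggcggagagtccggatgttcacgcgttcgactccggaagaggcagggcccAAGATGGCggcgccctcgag
Atp5g2: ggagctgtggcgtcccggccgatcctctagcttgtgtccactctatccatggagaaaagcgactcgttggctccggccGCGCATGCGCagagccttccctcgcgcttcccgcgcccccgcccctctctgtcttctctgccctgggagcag

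In complex II no gene passed. Sdhb, the iron-sulfur subunit, read 12.45, 12.49, 12.60, 12.31 and 12.36 in PBS, 12.46, 12.50, 12.59, 12.53 and 12.28 in DOX, and 12.35, 12.22, 12.39, 12.42 and 12.07 in VEGFB_DOX hearts, with a fold of -0.18 ± 0.08 (adjusted p = 0.183). The groups overlapped, and the lowest value of the DOX and VEGFB_DOX groups was that of the array set apart. Sdhc, an anchor in the membrane, read 13.10, 13.49, 13.48, 13.37 and 13.32 in PBS, 13.13, 13.16, 13.32, 13.12 and 13.53 in DOX, and 12.92, 13.04, 13.07, 13.23 and 13.31 in VEGFB_DOX hearts, and also overlapped (fold -0.14 ± 0.09). Sdhd, the other anchor, had a fold of -0.31 ± 0.39, with values of 8.40 to 8.72 on the arrays set apart and of 9.56 to 10.26 on the others.

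In complex III none of 8 genes passed. Uqcrc1, a core protein, read 13.63, 13.73, 13.73, 13.71 and 13.75 in PBS, 13.68, 13.79, 13.68, 13.74 and 13.75 in DOX, and 13.64, 13.60, 13.57, 13.62 and 13.57 in VEGFB_DOX hearts. The VEGFB_DOX values lay below all of the DOX values, by a small margin (fold -0.13 ± 0.05, adjusted p = 0.0979). Uqcrh, the hinge protein, read 12.99, 12.89, 13.00, 13.22 and 13.14 in PBS, 13.15, 13.06, 13.04, 13.16 and 13.00 in DOX, and 13.02, 12.88, 12.90, 12.85 and 12.95 in VEGFB_DOX hearts (fold -0.16 ± 0.07, adjusted p = 0.143). Its groups overlapped at one end. Across members, 7 genes had VEGFB_DOX values wholly below the DOX values, which are Ndufa2, Ndufaf5, Ndufb3, Ndufb6, Ndufb7, Ndufs3 and Uqcrc1, beside 3.07% of named genes.

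Complex IV was the only complex with a gene whose fold was above 0.2. Cox4i2, the isoform of subunit 4 found mainly in lung and other tissues that sense oxygen, read 7.85, 7.50, 7.43, 7.63 and 7.70 in PBS, 7.57, 7.96, 7.35, 7.66 and 7.44 in DOX, and 8.21, 8.45, 8.11, 7.60 and 7.72 in VEGFB_DOX hearts. The first 3 of these last values lay above every DOX value, and the rest fell within the DOX range. Its fold was 0.42 ± 0.14 (adjusted p = 0.0747), so it did not pass, but it passed without DOX 2, without VEGFB_DOX 4 and without VEGFB_DOX 5, with folds from 0.42 to 0.53 over all settings in which it passed. Its counterpart Cox4i1, the common isoform, was at 14.65 ± 0.13 (SD, n = 5) and 14.68 ± 0.06 (fold 0.03 ± 0.06). Cox6b2, the isoform of subunit 6b known from testis, was dim, at 7.00, 7.15, 7.07, 7.20 and 7.02 in PBS, 7.17, 7.01, 7.39, 7.20 and 7.07 in DOX and 7.26, 7.47, 7.03, 7.27 and 7.54 in VEGFB_DOX hearts. Its groups overlapped (fold 0.15 ± 0.09). Of the isoforms typical of heart and muscle, Cox6a2, Cox7a1 and Cox8b had folds between -0.12 and -0.03, and Cox7a2l, a supercomplex factor, was at -0.15 ± 0.07.

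In complex V none of 16 genes passed against DOX. Of the 3 genes for the c subunit of the rotor ring, 2 were members with a tested probe, Atp5g2 and Atp5g3. Atp5g2 read 11.68, 11.91, 12, 11.83 and 11.75 in PBS, 11.66, 11.72, 11.91, 11.89 and 11.83 in DOX, and 11.46, 11.39, 11.63, 11.78 and 11.45 in VEGFB_DOX hearts. Most VEGFB_DOX values lay below the DOX values, with 1 inside their range (fold -0.26 ± 0.08, adjusted p = 0.0613). Atp5g3 had a fold of 0.01 ± 0.09. Atp5b and Atp5c1, the beta and gamma subunits of the catalytic head, had folds of 0.06 ± 0.10 and 0.00 ± 0.10. Atp5l, the g subunit of the membrane part, read 13.30, 13.28, 13.31, 13.35 and 13.30 in PBS, 13.37, 13.30, 13.28, 13.25 and 13.36 in DOX, and 13.15, 13.32, 13.06, 13.16 and 13.22 in VEGFB_DOX hearts (fold -0.13 ± 0.05, adjusted p = 0.159).

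**Figure D4:**
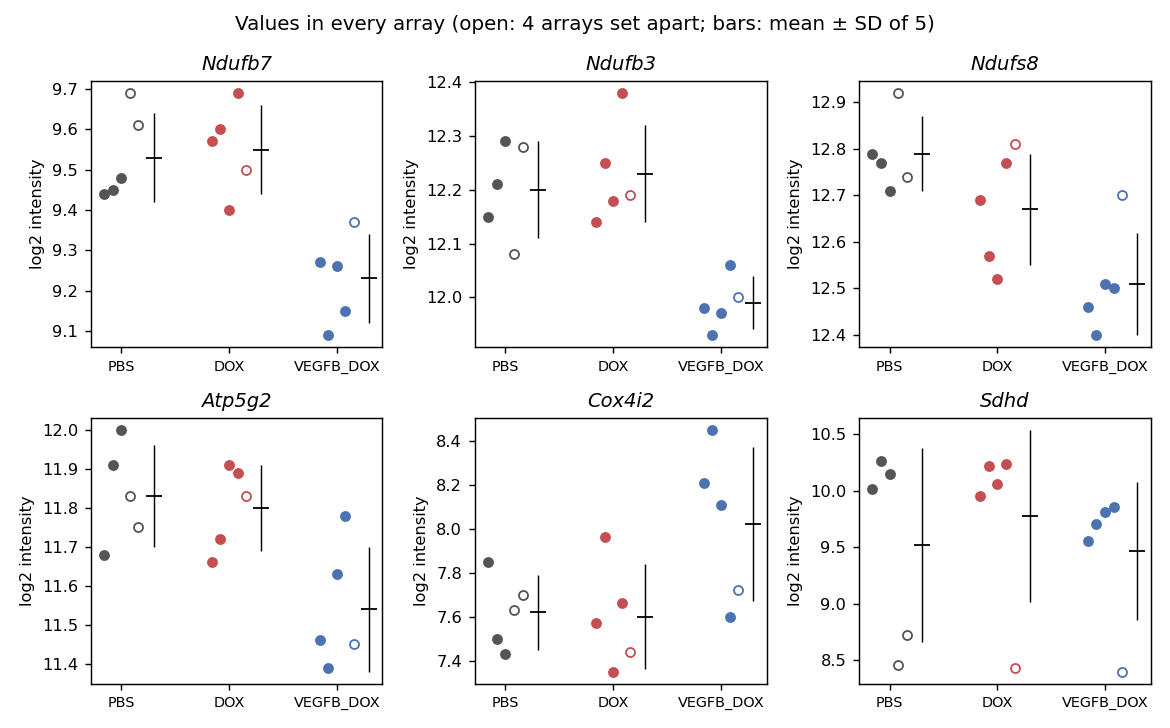
Log2 intensity of 6 member genes in every array (vertical axis) by group (horizontal axis), with the mean and SD of 5 arrays as a dash and bar. The VEGFB_DOX values of Ndufb7 and Ndufb3 lie below all others, Cox4i2 has 3 VEGFB_DOX values above every DOX value, and Sdhd is lowest on the 4 arrays set apart, drawn as open points.

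With the split of the 4 arrays in the model, 17 of 83 members fell in VEGFB_DOX against DOX (20.5%) beside 6.77% of named genes called as lower, and 0 rose. All 6 genes named above were among them. The 17 comprise 10 of complex I, 2 of complex II, 0 of complex III, 2 of complex IV and 3 of complex V, among them Sdhd (-0.31 ± 0.09, adjusted p = 0.0223), Sdhb (-0.18 ± 0.06, adjusted p = 0.0414), Cox7a2 (-0.29 ± 0.09, adjusted p = 0.0292), Atp5a1 (-0.33 ± 0.07, adjusted p = 0.00299) and Atp5e (-0.49 ± 0.11, adjusted p = 0.00709). The folds of these genes are the same as without the term, since DOX and VEGFB_DOX hold 1 such array each, and their standard errors are smaller. Without the 4 arrays, 10 members were lower, beside 3.89% of all probes. In the main fit the share was 3.17% of all probes and 3.95% of named genes, which are counted as the members are. Without the 4 arrays 4 of the 6 genes passed, while Ndufaf5 (-0.25, adjusted p = 0.0811) and Ndufaf8 (-0.23, adjusted p = 0.12) did not.

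The third comparison sets hearts given vector and drug against hearts given neither, and shares its VEGFB_DOX arrays with the second. In VEGFB_DOX against PBS, 6 of 83 members fell and 0 rose (7.23%), beside 14.6% of named genes called and 5.87% called as lower. The share of named genes called as lower depended on brightness. From a mean of 9 to under 12, 3 of 16 members and 395 of 3363 named genes were lower. From 12 to under 14 it was 3 of 33 and 52 of 425. Below 9 it was 0 of 12 and 299 of 8902, and from 14 up 0 of 22 and 2 of 60. The median fold of the members was -0.08. Ndufb7 fell by 0.31 ± 0.08 (adjusted p = 0.0153) and Ndufb3 by 0.21 ± 0.06 (adjusted p = 0.0331). Ndufs8, a core subunit that carries iron-sulfur clusters, fell by 0.27 ± 0.07, from 12.79 ± 0.08 (SD, n = 5) in PBS to 12.51 ± 0.11 (adjusted p = 0.0179), with DOX hearts at 12.67 ± 0.12 in between. Ndufs4, a supernumerary subunit whose loss in human patients causes Leigh syndrome, fell by 0.18 ± 0.06 (adjusted p = 0.0424), and Ndufc2, of the membrane arm, by 0.23 ± 0.07 (adjusted p = 0.0499). Atp5g2 fell by 0.29 ± 0.08 (adjusted p = 0.0301). In this comparison 7 members had VEGFB_DOX values wholly below those of PBS, beside 5.23% of named genes.

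These calls were sensitive to single arrays. Ndufb7 and Ndufs8 did not pass without PBS 4 or VEGFB_DOX 2, nor did the others without certain arrays, at folds from -0.29 to -0.16 and adjusted p from 0.0513 to 0.12 over all of these fits. Atp5g2 did not pass without PBS 2, PBS 3, PBS 4, VEGFB_DOX 1, VEGFB_DOX 2 or VEGFB_DOX 5, nor Ndufb3 without PBS 2, PBS 3, PBS 5, VEGFB_DOX 1, VEGFB_DOX 2 or VEGFB_DOX 3, nor Ndufc2 without any array but PBS 1 or VEGFB_DOX 4, and Ndufs4 passed in none of the 10 fits. The count of 6 became 2 without PBS 2, 2 without PBS 3, 1 without PBS 4, 2 without VEGFB_DOX 1, 0 without VEGFB_DOX 2 and 3 without VEGFB_DOX 3. For these fits too the share of all probes called is not given here. With the split in the model the count was 15 (18.1%), beside 7.36% of named genes called as lower, and held all 6. In the main fit 4.71% of all probes and 5.87% of named genes were lower. Without the 4 arrays 5 members were lower, beside 3.3% of all probes, but of the 6 only Ndufs8 was among them. Ndufb7, Ndufb3, Atp5g2, Ndufc2 and Ndufs4 did not pass there, at folds from -0.30 to -0.14 and adjusted p from 0.0733 to 0.255, and Ndufs3, Sdhd, Cox7a2 and Cox7b did.

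For 30 genes with several tested probes the probes could be compared, and for 3 genes a probe other than the brightest passed against PBS. A second probe of Ndufaf4, an assembly factor of complex I, read 9.82, 9.91, 9.81, 9.96 and 9.96 in PBS, 9.42, 10.06, 9.25, 9.54 and 9.62 in DOX and 9.05, 9.04, 9.46, 9.40 and 9.28 in VEGFB_DOX hearts. The VEGFB_DOX values lay below all PBS values, and DOX ranged across both. It fell by 0.65 ± 0.12 (adjusted p = 0.00177), while the brightest probe of Ndufaf4 was at -0.15 ± 0.10. A second probe of Atp5l fell by 0.57 ± 0.12 (adjusted p = 0.00374) beside -0.13 ± 0.05 for its brightest. A dimmer probe of Ndufab1, the mitochondrial acyl carrier protein, fell by 0.29 ± 0.08 (adjusted p = 0.0203) beside -0.17 ± 0.07. Against DOX a second probe of Ndufa3 fell by 0.22 ± 0.06 (adjusted p = 0.038) beside -0.20 ± 0.09 for its brightest. Where a gene was called by its brightest probe, its other tested probes did not pass. Against DOX these were at -0.17 ± 0.17 for Ndufaf5 and -0.06 ± 0.07 for Ndufaf8. Against PBS they were at -0.02 ± 0.07 for Ndufc2 and from -0.18 to -0.07 for Ndufs4. Which transcripts the probes read is not given in the sources used here. Counting all 122 tested probes, 7 were lower against DOX, beside 3.17% of all probes, and 9 against PBS, beside 4.71%, and 0 were higher in either.

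Mitochondrial DNA encodes further subunits of complexes I, III, IV and V, and 8 of the 13 had a probe, each of which was tested. By limma 0 passed in any comparison (0 at an unadjusted p under 0.05), with a median fold of 0.04 in DOX against PBS, -0.04 in VEGFB_DOX against DOX and 0.00 in VEGFB_DOX against PBS. ND1, ND4, CYTB, ATP6 and COX2 were bright, with means from 13.89 to 14.50. For CYTB, the cytochrome b of complex III, the fold in VEGFB_DOX against DOX was -0.12 ± 0.07, and for ND1, a core subunit of complex I, 0.01 ± 0.08. ND4L, another core subunit, read 12.50, 11.62, 11.49, 10.64 and 10.62 in PBS, 12.43, 12.59, 11.73, 12.77 and 9.83 in DOX, and 12.27, 12.10, 12.43, 11.11 and 9.70 in VEGFB_DOX hearts. Its lowest values in each group were those of the arrays set apart, with a difference of -1.91, and its fold in VEGFB_DOX against DOX was -0.35 ± 0.54 (adjusted p = 0.783). For COX2, ATP6 and ND4 the folds in this comparison were from -0.03 to 0.00. ND5 was close to background, with a mean of 7.00 and a fold of -0.06 ± 0.07. ND6 had a mean of 8.19. Its fold was -0.23 ± 0.13 (adjusted p = 0.339) against DOX and -0.18 ± 0.13 (adjusted p = 0.474) against PBS.

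Other genes of mitochondrial energy metabolism were examined in lists, and no list was tested as a set. The counts stand beside 3.95% of all named genes called as lower in VEGFB_DOX against DOX and 57.1% with a fold below 0. Among named genes with a mean from 9 to under 12, 284 of 3363 were called as lower. In VEGFB_DOX against DOX, 13 of 74 tested genes for mitochondrial ribosomal proteins, which translate the subunits encoded in mitochondrial DNA, were lower and 0 higher, with a median fold of -0.19. Of 13 enzymes of the tricarboxylic acid cycle 2 were lower, Suclg2 (-0.30 ± 0.07, adjusted p = 0.00615) and Idh3g (-0.20 ± 0.06, adjusted p = 0.0344), with a median of -0.18. Of 12 genes for cytochrome c and the synthesis of coenzyme Q 3 were lower, Coq3, Coq6 and Coq7, with a median of -0.20. Of 20 assembly factors of complex IV 2 were lower, Sco1 and Cox17, which handle copper, and all 20 folds were below 0. Both assembly factors of ATP synthase that passed, Atpaf2 and Tmem70, were lower, of 4 tested.

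Among 14 regulators of mitochondrial genes 4 were lower. They are the estrogen-related receptors Esrra (-0.21 ± 0.07, adjusted p = 0.0445), Esrrg (-0.30 ± 0.09, adjusted p = 0.0423) and Esrrb (-0.35 ± 0.09, adjusted p = 0.0224), nuclear receptors that drive genes of energy metabolism, and Tfb1m, a methyltransferase of mitochondrial ribosomal RNA (-0.30 ± 0.08, adjusted p = 0.0173). Of the 9 members that passed in either comparison and had a promoter window, 0 held the motif of the estrogen-related receptors. Among all members with a window it was 7 of 72. A link between these receptors and the members was not tested. None of these energy lists had a gene called in DOX against PBS, and 0 of their genes were higher in VEGFB_DOX against DOX.

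The tissue label was checked by markers. Of all 12750 named genes, 1075 were called as higher and 504 as lower in VEGFB_DOX against DOX. Against PBS it was 1114 and 748, and in DOX against PBS 36 and 17. The marker lists are short, and none was tested as a set. The 11 tested cardiomyocyte markers had 0 called in any comparison, with a median fold of 0.03 in VEGFB_DOX against DOX, and their summed level was 17.42 to 17.69 on DOX and 17.56 to 17.73 on VEGFB_DOX arrays. The markers were not matched to the members by brightness. Actc1 among them had a mean of 14.62, and the 22 members at or above 14 had a median fold of -0.03. Of 10 endothelial markers 9 were higher, 0 lower, with a median of 0.76, and their summed level was 13.94 to 14.18 on DOX and 14.76 to 14.92 on VEGFB_DOX arrays. All 4 tested markers of dividing cells were higher, with a median of 1.28. Of smooth muscle and pericyte markers 4 of 7 were higher. None of the 4 erythroid markers passed in this comparison, with a median of -0.31. Against PBS, 9 of 10 endothelial markers were higher, with a median of 0.81, and all 4 of dividing cells, with a median of 1.28, as were 2 of 7 macrophage markers (C1qb and C1qc), 2 of 4 neutrophil markers (S100a8 and S100a9), 2 of 7 of smooth muscle and pericytes, with 1 lower, and 1 of 7 of fibroblasts, with 1 lower. There 3 of 4 erythroid markers, all globin genes, were lower, with a median of -0.82 and a summed level of 15.46 to 15.92 on PBS and 14.30 to 15.83 on VEGFB_DOX arrays. In DOX against PBS the same 2 neutrophil markers were higher and 1 of smooth muscle and pericytes was lower. The part of these shifts in the lower folds of the respiratory chain genes was not tested.

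**Figure D5:**
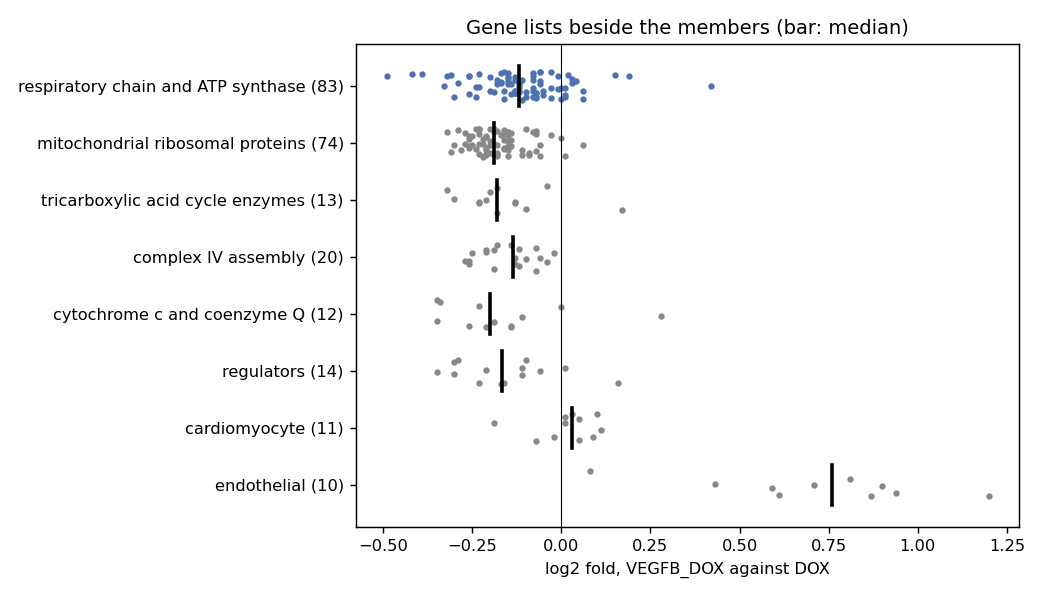
Log2 fold of each tested gene in VEGFB_DOX against DOX (horizontal axis) for the members and for lists of other genes (vertical axis, number of genes in parentheses), with the median as a bar. The medians of the members (-0.12) and of the mitochondrial ribosomal proteins (-0.19) lie below 0, that of the cardiomyocyte markers (0.03) lies near it and that of the endothelial markers (0.76) above it. The lists were not matched by brightness.

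Over the 15 arrays, the mean of the members was compared with each of 12667 other named genes. The closest patterns belonged to 1190007I07Rik (Pearson's r = 0.97), Ptgr2 (0.96), Ddt (0.95), Eci2 (0.94) and Yme1l1 (0.93). The arrays share the split of the 4 described above, so these values describe the arrays and carry no test.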

How the data were processed

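RNA of 15 hearts was hybridised to Illumina BeadChips. The values used are the log2 intensities that the authors deposited. That they are log2 was read from their range, and that they had been quantile-normalized between arrays was read from their equal distributions. The authors' software is not given in the sources used here. RNA was isolated and biotin-labelled cRNA prepared, per the labels' protocols. The columns of a raw table, 15 in number, could not be tied to labels, so it was not used.

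The background was the mode of a density estimate of all values (6.80) with an SD of 0.0729 from the values below it, which gave the limit of 6.92 (95%). The most frequent value had been tried first as the mode (6.78) and gave 27106 tested probes. The density mode was then taken because it gives the filter of an earlier analysis of these data. One model with 3 group means was fitted to all tested probes with limma 3.58.1 in R 4.3.3, with a variance trend. Symbols came from the platform table, in which 34885 probes carry 1 symbol, 18 several and 10378 none.

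The members, lists and tests were chosen with earlier results of these data known. Named genes are those that passed, those with the 3 largest folds per complex and comparison, the brightest and dimmest of each complex, isoform sets and genes whose probes disagree, with values in every array for the 2 genes of smallest p per complex, as far as they are described. Alternatives left out DOX 2 with VEGFB_DOX 3, the 4 arrays set apart or single arrays, or changed the filter, the variance model, the weights, the scaling, the block or the probes counted. The procedure was tested on simulated data. In DOX against PBS, VEGFB_DOX against DOX and VEGFB_DOX against PBS it recovered 36%, 38% and 22% of changes of 0.25 on the log2 scale. Of changes of 0.5 it recovered 88%, 96% and 80%. A member without a call can therefore hold a change of about 0.25. Promoters came from RefSeq (GRCm38.p6). Figures used Python 3.11.15 and matplotlib 3.10.9. The intensities look as if an offset was left in, and where so the folds understate changes of dim genes. The number of arrays limits the precision.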

Additional observations from a re-analysis of the deposited data

Results flagged for a closer look

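Of 156 groups of 5 arrays examined, 19 held an array whose gap to the nearest other array, divided by the range of the group, exceeded 0.71, and chance gives about 1 in 20. Of these, 18 were low values on replicate 5 of the DOX or VEGFB_DOX group, which are among the 4 arrays set apart. Ndufb4 read 7.79 on replicate 5 of DOX against 8.71 to 9 on the other 4 and 7.72 on replicate 5 of VEGFB_DOX against 8.33 to 8.56 on the other 4. Ndufb5 read 10.38 on replicate 5 of DOX against 11.47 to 11.78 on the other 4 and 10.15 on replicate 5 of VEGFB_DOX against 11.05 to 11.22 on the other 4. Ndufb9 read 9.46 on replicate 5 of DOX against 10.90 to 11.10 on the other 4 and 9.27 on replicate 5 of VEGFB_DOX against 10.34 to 10.73 on the other 4. Sdhd read 8.43 on replicate 5 of DOX against 9.95 to 10.24 on the other 4 and 8.40 on replicate 5 of VEGFB_DOX against 9.56 to 9.86 on the other 4. Cox7b read 8.11 on replicate 5 of VEGFB_DOX against 8.82 to 8.94 on the other 4. Atp5a1 read 11.05 on replicate 5 of DOX against 12.16 to 12.38 on the other 4 and 10.80 on replicate 5 of VEGFB_DOX against 11.85 to 12.11 on the other 4. Atp5e read 8.31 on replicate 5 of DOX against 9.47 to 9.82 on the other 4. Atp5md read 7.36 on replicate 5 of DOX against 8.60 to 8.79 on the other 4. The mean of all members relative to PBS was -0.18 on replicate 5 of VEGFB_DOX against -0.08 to -0.04 on its other arrays. For complex II it was -0.36 on replicate 5 of DOX, for complex IV -0.16 on replicate 5 of DOX and -0.12 on replicate 5 of VEGFB_DOX, and for complex V -0.18 on replicate 5 of DOX. The remaining value was high: Cox4i1 read 14.75 on replicate 5 of PBS against 14.65 to 14.67 on the other arrays.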

How the results depend on the processing

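No named result that passed changed its direction under an alternative tried here, and the median fold of the members kept its side of 0 in VEGFB_DOX against DOX and against PBS. Counts of calls did depend on the processing. Against DOX the 6 lower members became 3 without a filter on dim probes, 3 with only the 2 groups in the fit, 11 with array weights, 1 without DOX 2 and VEGFB_DOX 3, 10 without the 4 arrays set apart and 17 with the split in the model, and ranged from 1 to 5 when 1 array was left out. The 0 higher members became 1 with array weights and ranged from 0 to 1 when 1 array was left out. Against PBS the 6 lower members became 2 without the filter, 3 without DOX 2 and VEGFB_DOX 3 and 15 with the split, and ranged from 0 to 6 when 1 array was left out, and the 0 higher became 1 with array weights and 1 without DOX 2 and VEGFB_DOX 3, ranging from 0 to 1 when 1 array was left out. In DOX against PBS 1 member was lower without DOX 2 and VEGFB_DOX 3. The share of all probes called as lower moved as well: against DOX it was 3.17%, and 1.12%, 2.14%, 6.23%, 2.58%, 3.89% and 5.64% in the 6 fits in the order given, and against PBS 4.71%, and 1.87%, 4.44% and 6.05% in the 3 fits given. Named genes, counted by brightest probe as the members were, had 3.95% and 5.87% in the main fit. For the fits without 1 array no such share is given here. With the background taken from the most frequent value, 27106 probes were tested, the 6 calls against DOX stood and Ndufc2 against PBS no longer passed (adjusted p = 0.0564). The split in the model and this background were added after the data had been seen. The stricter background filter, the fits without a variance trend or with a robust prior, the scalings and the count over all tested probes kept each count within 1.5 times. Of the scalings, centring on bright probes shifted every array by 0.00, so its counts could not differ and say nothing about stability. The cause of these differences was not tested.

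The replicate number as a block gave 7 lower and 1 higher member against DOX and 5 lower against PBS. In that fit 3.72% of all probes were lower and 6.72% higher against DOX, and 5.35% were lower against PBS. The correlations did not settle whether the numbers pair the arrays. Of 15 pairs with the same number in different groups, 7 had deviations with a correlation over 0.1. Over all 15 pairs the correlations ran from -0.41 to 0.63, and 5 of 15 arrays matched their own number best. Pairs of number 1 had 0.15 to 0.33, those of number 5 had 0.32 to 0.63 and those of number 4 had -0.41 to 0.04. The sample list places arrays of the same number next to each other.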
